A study of Mus musculus with 18 samples.

Results

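The 10 genes described here are markers of fibro-adipogenic progenitors (FAPs): Pdgfra, Cd34, Cd248, Dpp4, Pi16, Dpt, Ly6a, Dcn, Lum and Clec11a. They were taken by symbol from a count table of 54532 genes, where all 10 were found. All 10 were also among the 17833 genes that passed the low-count filter and were tested. FAPs are mesenchymal cells that lie between muscle fibres, and PDGFRA, a receptor for platelet-derived growth factors, is their customary surface marker. They lay down much of the extracellular matrix of muscle, expand after damage and are cleared as repair ends, and in chronic injury they can give rise to fat and scar. Because the RNA came from whole muscle, fewer cells of a type and less RNA per cell cannot be told apart.

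Polyadenylated RNA was sequenced from the gastrocnemius, the large calf muscle, of female C57BL/6 mice. Both genotypes come from the Zfp697 conditional-knockout line: flox mice, which carry floxed Zfp697 alleles and which the series text calls wild-type, and mKO mice, in which the labels state that the gene was deleted in skeletal muscle. Each genotype was sampled as controls in conventional cages, after 10 days of hindlimb unloading, which takes body weight off the leg muscles, and after 3 days of reloading. The 6 groups held 3 libraries each, with 45069595 to 51592566 counts per library. The age of the mice and the promoter that drives the recombinase were not given in the sources used here. No label ties a library to an animal of its own, so the p-values below measure only the spread between these samples, which may be technical.

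Zfp697 itself passed the test between genotypes in none of the 3 conditions. In CPM (counts scaled to a common library total, here with TMM factors for RNA composition) it was 1, 0.984 and 1.6 in the flox controls and 1.05, 1.31 and 1.25 in the controls labelled mKO. The log2 difference between genotypes was 0.01 ± 0.26 (SE, n = 3 per group) in controls, 0.01 ± 0.25 after unloading and -0.61 ± 0.25 after reloading, with edgeR adjusted p = 1, 1 and 0.172. The reloading libraries did not overlap, with 2.79, 2.33 and 2.57 CPM in flox and 1.6, 1.95 and 1.47 labelled mKO. Reloading against control was called in flox (1.1 ± 0.26 log2, edgeR adjusted p = 0.00429) and not under the mKO label (0.48 ± 0.26, adjusted p = 0.382), and the difference of those changes did not pass (-0.62 ± 0.36, adjusted p = 0.496). The count covers the whole gene in all cell types of the muscle and the deleted stretch is not given, so this value does not check the labels. Directions between genotypes below are therefore directions between libraries labelled mKO and libraries labelled flox. The tissue label was met by myofibre genes: the 8 listed (Acta1, Ckm, Myh1, Myh2, Myh4, Mylpf, Tnnt3 and Pvalb) summed to between 107000 and 153000 CPM per library.

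Per kilobase of exon, Dcn was the most abundant of the markers, at 99.3 CPM per kb averaged over the 6 groups, rank 329 of the 17833 tested genes. Dpt followed at 43.3, Ly6a at 42.1 and Lum at 26.5 CPM per kb. Cd34 stood at 12.3, Pi16 at 9.86, Cd248 at 8.22 and Pdgfra at 4.32 CPM per kb. Dpp4, at 1.8, and Clec11a, at 1.69 CPM per kb, were the least abundant. Summed over the 10 genes, the CPM ran from 853 to 1190 per library, with Dcn as the largest part of each sum.

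The promoters shown are of 3 markers that fell with unloading in both genotypes (Cd34, Dpt and Clec11a) and of Pdgfra, which passed no test, so that genes with and without a change can be set side by side. RefSeq's table for GRCm38.p6 gave a promoter for 6 of the 10 genes, each window running from 250 bases before the transcription start to 50 bases from it on. Capitals mark matches, on either strand, to 5 short promoter motifs whose letters are spelled out after the sequences.
Pdgfra, chr5:75152001-75152300, plus strand: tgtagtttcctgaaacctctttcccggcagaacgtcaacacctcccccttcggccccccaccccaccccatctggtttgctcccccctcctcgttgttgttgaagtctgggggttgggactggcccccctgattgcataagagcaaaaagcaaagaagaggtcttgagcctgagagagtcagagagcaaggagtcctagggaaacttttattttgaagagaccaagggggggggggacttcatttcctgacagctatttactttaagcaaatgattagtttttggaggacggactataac
Cd34, chr1:194938571-194938870, plus strand: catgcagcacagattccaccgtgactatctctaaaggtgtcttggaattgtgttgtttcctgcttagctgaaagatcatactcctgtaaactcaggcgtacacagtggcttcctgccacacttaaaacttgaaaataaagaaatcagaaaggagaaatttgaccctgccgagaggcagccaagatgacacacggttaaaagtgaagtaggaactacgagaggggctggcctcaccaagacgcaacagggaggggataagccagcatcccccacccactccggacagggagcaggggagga
Dpt, chr1:164796413-164796712, plus strand: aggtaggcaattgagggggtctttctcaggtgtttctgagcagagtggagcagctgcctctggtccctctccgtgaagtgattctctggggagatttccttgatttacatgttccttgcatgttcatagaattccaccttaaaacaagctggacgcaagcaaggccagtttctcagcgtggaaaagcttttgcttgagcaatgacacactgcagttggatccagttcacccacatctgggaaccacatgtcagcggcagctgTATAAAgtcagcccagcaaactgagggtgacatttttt
Clec11a, chr7:44306910-44307209, minus strand: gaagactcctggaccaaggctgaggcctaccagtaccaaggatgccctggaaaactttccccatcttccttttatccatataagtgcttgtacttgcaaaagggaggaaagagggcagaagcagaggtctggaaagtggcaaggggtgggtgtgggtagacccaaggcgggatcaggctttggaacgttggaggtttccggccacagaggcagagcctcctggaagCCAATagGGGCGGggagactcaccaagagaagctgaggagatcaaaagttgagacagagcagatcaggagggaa

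The Clec11a window held 2 motifs that did not overlap. One was the CCAAT box, spelled by its name, 24 bases before the start, which 37.4% of all 32851 promoters of this length hold. The other was the GC box bound by factors of the SP family, with the letters GGGCGG, 17 bases before the start, held by 35.7% of those promoters. The Dpt window held the TATA box, searched as TATAAA, at base 13 after the start, and 13.6% of those promoters hold it. The AP-1 site, searched with the letters TGANTCA, was in none of the 6 windows and in 7.81% of all promoters. The TEAD site, searched with the letters GGAATG, was in 14.7% of all promoters and, among the 6, only in that of Dpp4. No match to any of the 5 was present in the Pdgfra and Cd34 windows. In the windows not printed, Dpp4 also held the TATA box and Pi16 the CCAAT box. A match describes letters in the window and does not show that a factor binds there.

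**Figure D1:**
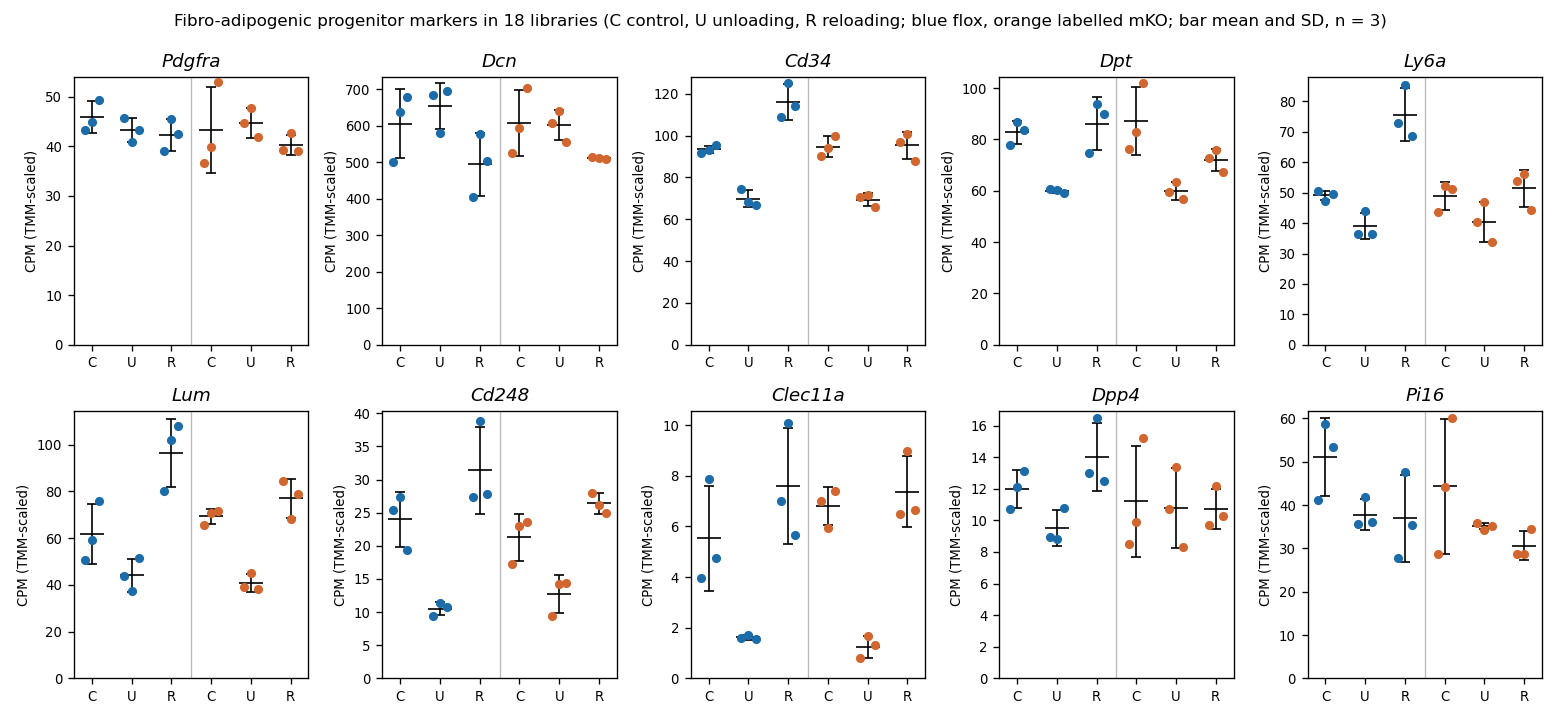
CPM (TMM-scaled, vertical axis) of each marker in the 18 libraries, by genotype and loading; points are libraries, bars are the mean and SD of 3. Clec11a, Cd248, Cd34 and Dpt fell at unloading in both genotypes, while Pdgfra stayed between group means of 40.3 and 45.9 CPM.

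Pdgfra, the receptor that defines FAPs (GRCm38 chromosome 5, 75152292 to 75198215), was the steadiest of the 10. In flox libraries it measured 43.3, 44.8 and 49.4 CPM in controls, 45.7, 40.9 and 43.3 after unloading and 39, 45.5 and 42.4 after reloading. The libraries labelled mKO gave 36.6, 39.9 and 53 in controls, 44.6, 47.7 and 41.8 after unloading and 39.2, 42.7 and 39.1 after reloading. Every group overlapped its neighbour when the 6 were ordered by mean. The largest log2 difference in the 6 comparisons of loading was -0.15 ± 0.11 (reloading against unloading, labelled mKO, edgeR adjusted p = 0.386, 95% interval -0.38 to 0.09). Pdgfra passed none of the 12 tests, and the flox intervals for unloading against control (-0.32 to 0.15) and reloading against unloading (-0.27 to 0.2) exclude a change of 1 log2 unit.

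Of the other genes in the PDGF system, 3 of 6 rose in flox muscle on reloading against unloading, where 17% of all tested genes were called higher, and 1 of 6 in muscle labelled mKO, where 9.53% were. With total counts in place of TMM factors these counts were 4 and 0. That scaling called 5556 of 17833 tested genes in flox, 71.8% of them higher, and 3047 under the mKO label, 56.5% of them higher. The 3 called in flox with TMM factors were the ligands Pdgfc, by 0.75 ± 0.19 log2, Pdgfb, by 0.67 ± 0.13, and Pdgfd, by 0.47 ± 0.17 (edgeR adjusted p = 0.00573, 0.00105 and 0.0453). Pdgfb also rose under the mKO label, by 0.41 ± 0.13 log2 (edgeR adjusted p = 0.0397). After unloading edgeR called 0 of the 6 in either genotype, with 2 in flox and 1 under the mKO label at an unadjusted p under 0.05, and DESeq2 called 1 lower in each. Pdgfrb, the second receptor, had group means of 40.5 to 46 CPM.

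The genes nearest in pattern to Pdgfra, by root mean square difference of centred log2 CPM over the 18 libraries, were Kdm5b (0.091), Cflar (0.093), Wasl (0.095), Ckap5 (0.096) and Kidins220 (0.098). These 5 lie nearest among 12038 genes, for which the median difference from Pdgfra was 0.233. The nearest marker was Dcn, at 0.148, in position 785. The group means of Pdgfra spanned only 0.18 log2, so nearness to it reflects little change over the libraries and not a shared response.

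With unloading, Cd34, Cd248, Dpt and Clec11a fell in both genotypes. In flox muscle 4 of the 10 fell against controls and none rose, where 3.07% of all tested genes were called lower. In muscle labelled mKO 5 of 10 fell and none rose, against 3.66% of all tested genes called lower. The median log2 change of the 10 was -0.43 in flox and -0.39 under the mKO label, and over all tested genes it was -0.002 and -0.006. Lum passed the test under the mKO label and not in flox, and the difference between those changes did not pass (interaction -0.28 ± 0.2 log2, edgeR adjusted p = 1). For unloading against control, 0 of 10 markers passed the edgeR interaction test (0% of all tested genes), 0 had an unadjusted p under 0.05 and 0 were called by DESeq2.

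On reloading all 4 rose in flox, and all but Dpt passed the test under the mKO label. In flox muscle 7 of the 10 rose against unloading, where 17% of all tested genes were called higher, and 1, Dcn, fell, where 14.9% were called lower. Under the mKO label 4 of 10 rose (9.53% of all tested genes called higher) and none fell. The median log2 change of the 10 was 0.64 in flox and 0.31 under the mKO label, against 0.004 and 0.006 over all tested genes. Both comparisons share their unloading libraries with those against control, so a gene that was low at unloading enters both.

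Against never-unloaded controls, reloaded flox muscle had 3 of the 10 markers higher, Cd34, Ly6a and Lum, where 12.3% of all tested genes were called higher. The median of the 10 was 0.27. With total counts 4 were higher, Cd248 being the other, and the median was 0.42. Over all 17833 tested genes that scaling called 4539, of which 80.5% were higher, and gave a median of 0.148. With no low-count filter 6 were called, among them Pi16 and Dcn as lower. Of all 32258 genes then tested 4296 were called, 52.5% of them higher. Under the mKO label edgeR called 0 of 10 (2.18% of all tested genes in either direction), with a median of -0.02; 2 of 10 had an unadjusted p under 0.05 and DESeq2 called 0. For this change, reloading against control, 0 of 10 markers passed the edgeR interaction test (0.522% of all tested genes), 4 had an unadjusted p under 0.05, and DESeq2 called 0. For reloading against unloading the interaction also called 0 of 10 (0% of all tested genes), with 3 at an unadjusted p under 0.05 and 0 by DESeq2.

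**Figure D2:**
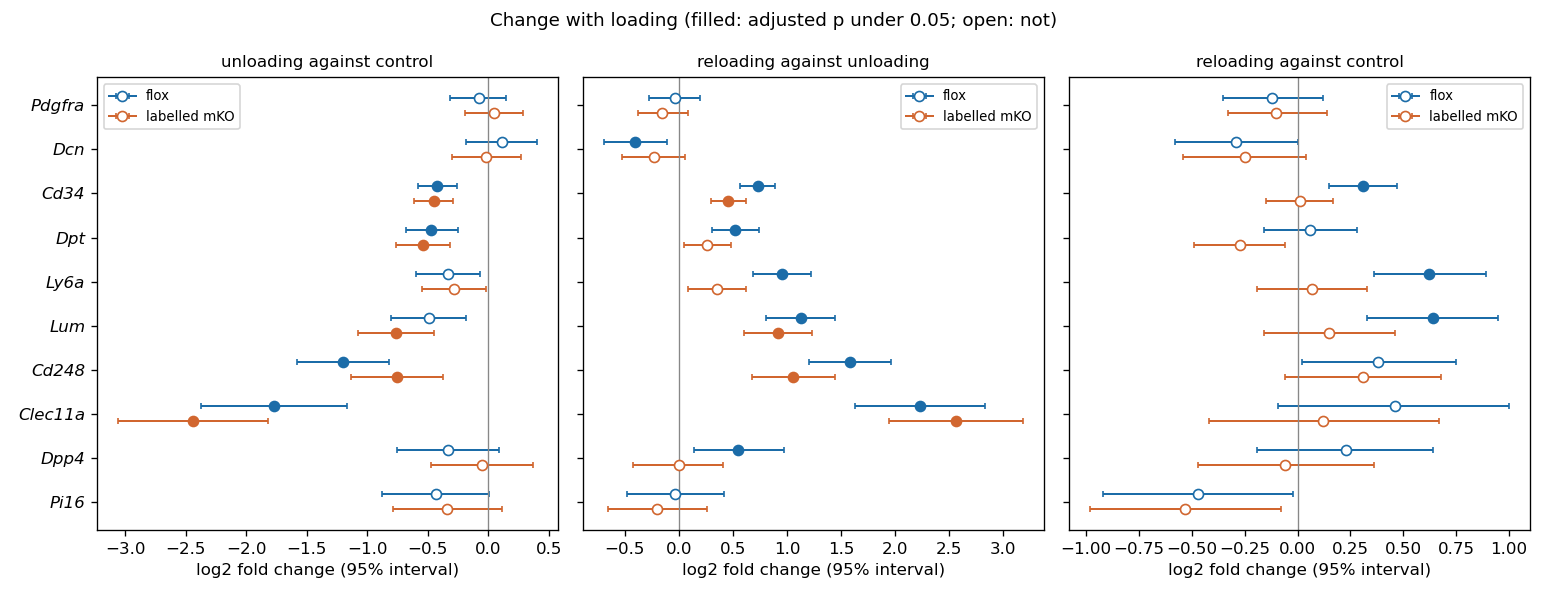
Log2 fold change (horizontal axis) with its 95% interval for each marker in 3 comparisons of loading, flox in blue and labelled mKO in orange; filled points passed an edgeR adjusted p of 0.05. Clec11a has the widest swings, -1.77 and 2.23 in flox, and Pdgfra lies near 0 in every panel.

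Scaling bears on the flox reloading comparisons. With total counts in place of TMM factors, the median of all tested genes moved to 0.114 for reloading against unloading, 0.148 for reloading against control and -0.129 for labelled mKO against flox at reloading. The share of called genes that were higher went from 53.3% to 71.8% in the first, from 54.3% to 80.5% in the second and from 21.6% to 2.42% in the third. The TMM factors were 1.083 ± 0.0159 (SD, n = 3) in flox reloading and between 0.9752 and 1.003 on average in the other 5 groups. Reloading libraries labelled mKO differed among themselves, with 0.9598, 1.046 and 0.9523 in replicates 1, 2 and 3.

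Cd34, a sialomucin of progenitor and endothelial surfaces (chromosome 1, 194938819 to 194961279), followed loading closely. Flox libraries held 91.9, 93.1 and 95.4 CPM in controls, 74.3, 68.4 and 66.8 after unloading and 109, 125 and 114 after reloading. Under the mKO label the values were 90.1, 94.3 and 99.9 in controls, 70.5, 71.8 and 66.1 after unloading and 97.2, 101 and 87.9 after reloading. All unloading libraries lay below all others, and the flox reloading libraries lay above all others. Cd34 fell with unloading, with log2 changes of -0.42 ± 0.07 in flox and -0.45 ± 0.07 under the mKO label (edgeR adjusted p = 0.00315 and 0.00179). On reloading against unloading it rose by 0.73 ± 0.07 log2 in flox and by 0.46 ± 0.07 under the mKO label (edgeR adjusted p = 1.38e-06 and 0.000416), and it ended above control in flox, by 0.31 ± 0.07 (adjusted p = 0.00476).

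Ly6a, which encodes the surface antigen SCA-1 (chromosome 15, 74994877 to 74998031), did not pass the test after unloading. Its flox values were 50.4, 47.4 and 49.5 CPM in controls, 36.5, 44 and 36.5 after unloading and 72.9, 85.4 and 68.5 after reloading. The unloading change was -0.33 ± 0.12 log2 in flox, without overlap (edgeR adjusted p = 0.12), and was called with the replicate number as a block (0.0463) and with no low-count filter (0.0184). Libraries labelled mKO had 43.8, 52.3 and 51.1 in controls, 40.3, 46.9 and 33.8 after unloading and 53.8, 56.1 and 44.4 after reloading. Their unloading change was -0.28 ± 0.12 log2 (edgeR adjusted p = 0.161). The flox reloading libraries stood above all other libraries. Reloading raised Ly6a in flox by 0.95 ± 0.12 log2 against unloading and by 0.62 ± 0.12 against control (edgeR adjusted p = 1.43e-05 and 0.00116). Under the mKO label the reloading change of 0.35 ± 0.12 had an edgeR adjusted p of 0.0507, and ranged from 0.00576 to 0.235 over the alternatives. Ly6a belongs to a family of near-identical neighbours, so its count may depend on how reads shared with them were treated.

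Cd248, or endosialin, a surface glycoprotein of stromal cells and pericytes (chromosome 19, 5068078 to 5070637), moved further. It measured 25.4, 27.4 and 19.4 CPM in flox controls, 9.39, 11.3 and 10.8 after unloading and 27.4, 38.9 and 27.8 after reloading. Labelled mKO, it was 17.2, 23 and 23.6 in controls, 9.41, 14.2 and 14.4 after unloading and 28, 26.1 and 25 after reloading. In both genotypes the unloading libraries lay below the control and reloading libraries. It fell with unloading, with log2 changes of -1.2 ± 0.17 in flox and -0.75 ± 0.17 under the mKO label (edgeR adjusted p = 0.000811 and 0.014), and rose on reloading by 1.58 ± 0.17 and 1.06 ± 0.17 (adjusted p = 3.66e-06 and 0.000446). The fall under the mKO label lost its call without control replicate 2, control replicate 3 or unloading replicate 1 of that genotype, with edgeR adjusted p of 0.0564, 0.0627 and 0.085.

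Dpp4, a cell-surface peptidase used with Pi16 to mark progenitors of the fibroblast lineage (chromosome 2, 62330073 to 62412231), was low throughout. Its values were 10.7, 12.1 and 13.1 CPM in flox controls, 8.93, 8.83 and 10.8 after unloading and 13, 16.5 and 12.5 after reloading. The libraries labelled mKO ranged from 8.34 to 15.2 CPM over the 3 conditions. Within a genotype, only flox reloading and flox unloading did not overlap, a rise of 0.55 ± 0.19 log2 (edgeR adjusted p = 0.0333). That call was lost without flox unloading replicate 1 or 2 or flox reloading replicate 2, with edgeR adjusted p of 0.106, 0.106 and 0.165.

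Pi16, which encodes a secreted peptidase inhibitor (chromosome 17, 29318877 to 29329413), passed none of the 12 tests. Flox libraries had 41.2, 58.7 and 53.3 CPM in controls, 35.6, 41.8 and 36 after unloading and 27.8, 47.6 and 35.4 after reloading. Those labelled mKO had 28.8, 44.1 and 60.1 in controls, 35.8, 34.3 and 35.2 after unloading and 28.8, 28.7 and 34.5 after reloading. In each genotype the control libraries overlapped those of both other conditions. Against control, the reloading difference was -0.47 ± 0.21 log2 in flox and -0.53 ± 0.21 under the mKO label, with edgeR adjusted p of 0.114 and 0.198. With no low-count filter, reloading against control and unloading against control were called lower in both genotypes, and the flox reloading difference was also called without flox reloading replicate 2.

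Dpt, or dermatopontin, a small matrix protein that binds decorin and collagen (chromosome 1, 164796644 to 164824266), was tightly grouped at unloading. It measured 77.9, 86.7 and 83.7 CPM in flox controls, 60.6, 60.2 and 59.1 after unloading and 74.7, 94 and 90 after reloading. Labelled mKO, the values were 76.4, 82.9 and 102 in controls, 59.7, 63.4 and 56.7 after unloading and 72.6, 76 and 67.4 after reloading. Unloading libraries lay below every control and reloading library. Dpt fell, with log2 changes of -0.47 ± 0.1 in flox and -0.54 ± 0.1 under the mKO label (edgeR adjusted p = 0.0114 and 0.00361), and rose on reloading in flox by 0.52 ± 0.1 (adjusted p = 0.000607). The flox fall had an edgeR adjusted p of 0.0552 without flox control replicate 2. Cd34 and Dpt were the closest pair among the 10, with a root mean square difference of 0.133 in centred log2 CPM over the 18 libraries.

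Dcn and Lum encode decorin and lumican, small leucine-rich proteoglycans that bind collagen fibrils, and they lie side by side on chromosome 10 (97479609 to 97518143 and 97565128 to 97572703, both on the plus strand), 47.0 kb apart. Dcn measured 500, 639 and 680 CPM in flox controls, 684, 582 and 697 after unloading and 405, 577 and 503 after reloading. The libraries labelled mKO ranged from 509 to 704 CPM. Among them the reloading libraries, at 509 to 514, lay below the unloading libraries (557 to 640) and the controls (526 to 704). Neither change passed: it was -0.23 ± 0.13 log2 against unloading and -0.25 ± 0.13 against control (edgeR adjusted p = 0.245 and 0.373). All flox reloading libraries were below all flox unloading libraries. Dcn fell by 0.4 ± 0.13 log2 between these groups (edgeR adjusted p = 0.0267). The call was lost with total counts (-0.29, edgeR adjusted p = 0.107) and without flox unloading replicate 1 or 3 or flox reloading replicate 1 or 3, with adjusted p of 0.0537 to 0.141.

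Lum moved the opposite way to its neighbour on reloading. Its values were 50.7, 59.1 and 76 CPM in flox controls, 43.6, 37.3 and 51.5 after unloading and 80.1, 102 and 108 after reloading. Labelled mKO, Lum was 65.5, 70.7 and 71.8 in controls, 39.2, 45 and 38.3 after unloading and 84.4, 68.1 and 78.7 after reloading. In both genotypes reloading libraries lay above unloading libraries without overlap. It rose by 1.13 ± 0.14 log2 in flox and 0.92 ± 0.14 under the mKO label (edgeR adjusted p = 1.46e-05 and 0.000306), and ended 0.64 ± 0.14 above control in flox (adjusted p = 0.00322). The unloading change was -0.49 ± 0.14 in flox (edgeR adjusted p = 0.0524, from 4.21e-05 to 0.229 over the alternatives), and Lum fell by 0.76 ± 0.14 under the mKO label (adjusted p = 0.00394).

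The ratio of Lum to Dcn CPM, chosen after the values were seen and given without a test, was 0.102 ± 0.00964 (SD, n = 3) in flox controls. It was 0.0672 ± 0.00584 after unloading and 0.196 ± 0.0187 after reloading. Labelled mKO, it was 0.115 ± 0.0118, 0.0678 ± 0.00296 and 0.151 ± 0.0163. The ratio rests on 2 counts of the same library, so it does not depend on the scaling between libraries. In both genotypes the 3 conditions did not overlap, and the flox reloading libraries, at 0.176 to 0.214, lay above those labelled mKO, at 0.133 to 0.164.

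**Figure D3:**
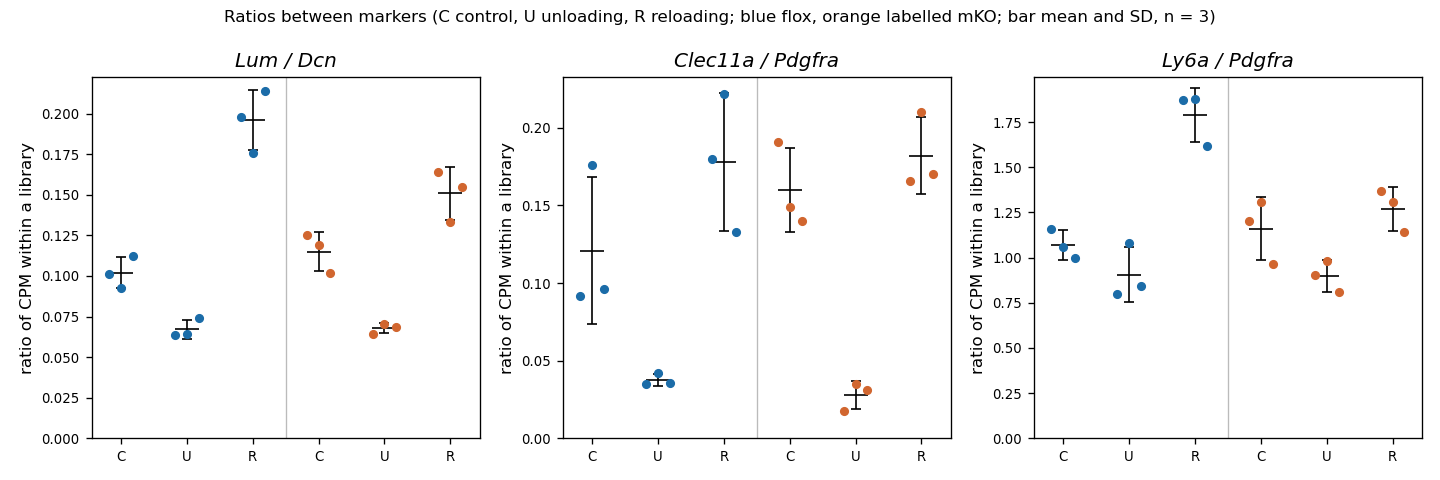
Ratio of CPM within a library (vertical axis) for Lum to Dcn, Clec11a to Pdgfra and Ly6a to Pdgfra; points are libraries, bars are the mean and SD of 3. The Lum to Dcn ratio is lowest at unloading (0.0637 to 0.074 in flox) and highest at reloading.

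Of 10 tested small leucine-rich proteoglycan genes other than Dcn and Lum, 3 rose and 1 fell on reloading against unloading in each genotype. The equal counts do not mean that the same genes changed. Aspn went from a mean of 28.6 to 52.3 CPM in flox and from 27.9 to 30.8 CPM under the mKO label. In flox, Bgn (biglycan) rose by 1.9 ± 0.22 log2, Aspn (asporin) by 0.87 ± 0.13 and Kera (keratocan) by 0.75 ± 0.28, while Omd (osteomodulin) fell, with a change of -0.66 ± 0.23 (edgeR adjusted p = 7.01e-06, 5.68e-05, 0.0486 and 0.0384). In flox 17% of all tested genes were called higher and 14.9% lower, and under the mKO label 9.53% and 8.81%. The median of the list in flox was 0.1, and with total counts 4 rose and 0 fell. That scaling called 5556 of 17833 tested genes in flox, 71.8% of them higher. Epyc and Podnl1 were below the low-count filter.

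Clec11a encodes a secreted glycoprotein of the C-type lectin family, also called osteolectin or stem cell growth factor (chromosome 7, 44302687 to 44306902), and had the widest range of the 10. Counts ran from 36 to 545 per library. Flox libraries had 3.96, 7.89 and 4.75 CPM in controls, 1.58, 1.72 and 1.55 after unloading and 7.02, 10.1 and 5.65 after reloading. Labelled mKO, it was 7, 5.95 and 7.41 in controls, 0.786, 1.66 and 1.3 after unloading and 6.49, 8.98 and 6.64 after reloading. The 6 unloading libraries were all below the 12 others. Clec11a fell with unloading, with log2 changes of -1.77 ± 0.27 in flox and -2.44 ± 0.28 under the mKO label (edgeR adjusted p = 0.00129 and 0.000162), and rose on reloading by 2.23 ± 0.27 and 2.56 ± 0.28 (adjusted p = 1.02e-05 and 2.39e-05).

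For Clec11a, reloading against control did not pass: the change was 0.46 ± 0.25 log2 in flox and 0.12 ± 0.25 under the mKO label, with 95% intervals of -0.09 to 1 and -0.42 to 0.67. Without flox control replicate 2 the flox change was 0.8 and was called (edgeR adjusted p = 0.0365), and leaving out 1 library at a time it ran from 0.19 to 0.8. Against Pdgfra in the same library, a ratio chosen after the values were seen, its CPM ratio was 0.121 ± 0.0475 (SD, n = 3) in flox controls, 0.0375 ± 0.00393 after unloading and 0.178 ± 0.0444 after reloading. The genes nearest in pattern to Clec11a, by the same root mean square difference, were Col1a2 (0.23) and Col1a1 (0.271), the chains of type I collagen, then Col2a1 (0.377), Col6a2 (0.445) and Papln (0.453). The median difference over 12038 genes was 1.119. Among the markers Cd248 was nearest, at 0.614.

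Between genotypes, no marker passed the test in controls or after unloading. edgeR called 0 of 10 in each (0% of all tested genes in controls and 0% after unloading), 0 had an unadjusted p under 0.05 in either, and DESeq2 called 0. The log2 differences in controls ran from -0.2 to 0.29 and after unloading from -0.37 to 0.27. At reloading 2 of 10 were lower under the mKO label, where 3.85% of all tested genes were called lower, and the median of the 10 was -0.27. With total counts 4 were lower, Dpt and Lum being the others, and the median was -0.4. Over all 17833 tested genes that scaling called 1485, of which 2.42% were higher, and gave a median of -0.129.

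The 2 were Ly6a and Cd34. For Ly6a the reloading libraries were 72.9, 85.4 and 68.5 CPM in flox and 53.8, 56.1 and 44.4 labelled mKO, a log2 difference of -0.56 ± 0.12 (edgeR adjusted p = 0.0119). For Cd34 they were 109, 125 and 114 against 97.2, 101 and 87.9, a difference of -0.28 ± 0.07 (edgeR adjusted p = 0.0315). The genotypes did not overlap for either gene. Without flox reloading replicate 2, or without mKO reloading replicate 3, neither passed: Ly6a had an edgeR adjusted p of 0.0994 and 0.0988, and Cd34 of 0.197 and 0.198. Cd34 also lost its call without flox reloading replicate 3 (0.0537) or mKO reloading replicate 1 (0.0765), with only the compared groups in the fit (0.141) and with no low-count filter (0.0682).

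The difference of changes did not pass for either gene. For Ly6a the mKO change minus the flox change was -0.6 ± 0.17 log2 for reloading against unloading and -0.55 ± 0.17 for reloading against control, with edgeR adjusted p of 0.197 and 0.146. For Cd34 these were -0.28 ± 0.1 and -0.3 ± 0.1, with adjusted p of 0.362 and 0.193. Clec11a, the marker with the largest loading response, gave -0.04 ± 0.25 between genotypes at reloading (95% interval -0.58 to 0.5), and Dcn 0.05 ± 0.13 (-0.24 to 0.34), a sign that turns to -0.09 with total counts. The ratio of Ly6a to Pdgfra, also chosen after the values were seen, was 1.62 to 1.88 in reloaded flox libraries and 1.14 to 1.37 in those labelled mKO.

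**Figure D4:**
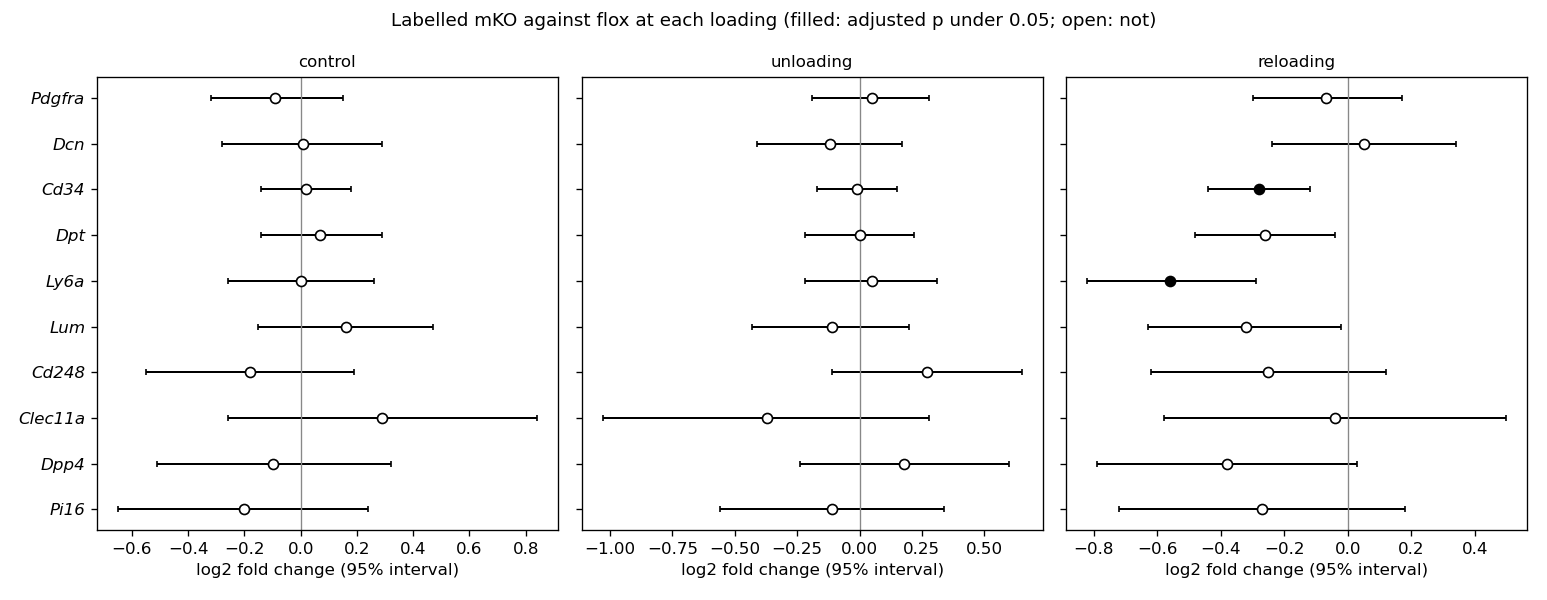
Log2 difference, labelled mKO against flox (horizontal axis), with its 95% interval for each marker at control, unloading and reloading; filled points passed an edgeR adjusted p of 0.05. Ly6a (-0.56) and Cd34 (-0.28) are filled at reloading and no point is filled in the other panels.

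Ly6a and Cd34 are also made by endothelial cells, and 10 endothelial genes were measured beside them. With unloading edgeR called 0 of the 10 in flox (median -0.02, 1 at an unadjusted p under 0.05, 0 called by DESeq2) and 1 lower under the mKO label (median -0.08). Of the 10, 6 rose in flox on reloading against unloading (median 0.39), among them Kdr, by 0.65 ± 0.14 log2, Emcn, by 0.62 ± 0.1, Pecam1, by 0.5 ± 0.07, and Cdh5, by 0.4 ± 0.08 (edgeR adjusted p = 0.00142, 0.000121, 4.06e-05 and 0.001). At reloading 2 of 10 were lower under the mKO label, with log2 differences of -0.48 ± 0.07 for Pecam1 and -0.34 ± 0.09 for Esam (edgeR adjusted p = 0.00138 and 0.0341). Among all tested genes, 3.66% were called lower with unloading under the mKO label. On reloading against unloading 17% were called higher in flox, and at reloading 3.85% were lower under the mKO label. With total counts 9 of 10 endothelial genes rose and 6 of 10 were lower. That scaling called 5556 of all 17833 tested genes in the first of these comparisons, 71.8% of them higher. In the second it called 1485, of which 2.42% were higher. The summed endothelial CPM was 495 to 556 in reloaded flox libraries and 419 to 466 in those labelled mKO. The part of endothelial RNA in the Ly6a and Cd34 results was not tested.

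Macrophage genes also moved with reloading and with the genotype label. All 10 listed rose in flox on reloading against unloading (median 1.35), and 9 of 10 were lower under the mKO label at reloading (median -1.17). Of all tested genes, 17% were called higher in the first comparison and 3.85% lower in the second. The second called 875 genes in either direction, 127 without mKO reloading replicate 3 and 1630 without mKO reloading replicate 2. Macrophage calls were not recomputed with a library left out. The summed CPM of these macrophage genes was 300 to 451 in reloaded flox libraries, 147 to 208 in reloaded libraries labelled mKO and 93.4 to 184 in all control and unloading libraries. Tendon genes, which can come with the muscle's ends, fell with unloading in 2 of 8 cases in flox and 5 of 8 under the mKO label, with summed CPM of 388 to 460 and 284 to 421 at unloading. Over all tested genes 3.07% and 3.66% were called lower with unloading. Tendon cells also make Dcn and Lum, and the part of these cells in the changes of the 10 markers was not tested.

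Other identity genes of fibroblasts were also measured. Of 16 tested identity genes, 5 rose and 2 fell in flox on reloading against unloading (median 0.19). The shares over all tested genes were 17% higher and 14.9% lower. Falls were thus no more frequent in this list than among all tested genes. Fstl1 rose by 1.85 ± 0.13 log2, Thy1 by 1.81 ± 0.16 and Pcolce by 1.4 ± 0.15, and Cdh11 by 0.93 ± 0.22 (edgeR adjusted p = 7.08e-08, 4.93e-07, 2.34e-06 and 0.00299). Gsn and Scara5 were the 2 that fell. With unloading, 3 of 16 fell in flox and 4 of 16 under the mKO label, Thy1 with log2 changes of -1.05 ± 0.16 and -1.28 ± 0.16 (edgeR adjusted p = 0.00125 and 0.000248). Over all tested genes 3.07% and 3.66% were called lower with unloading in flox and under the mKO label.

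Among adventitial progenitor genes, the class marked by Dpp4 and Pi16, 3 of 10 rose in flox on reloading against unloading (median 0.27): Fbn1 by 2.57 ± 0.36, Wnt2 by 1.26 ± 0.43 and Mfap5 by 1.08 ± 0.14 log2 (edgeR adjusted p = 3.8e-05, 0.0326 and 2.15e-05). Wnt2 was low, with 6 to 54 counts per library and flox means of 0.261 CPM at unloading and 0.624 CPM at reloading. On reloading against unloading in flox, 17% of all tested genes were called higher and 14.9% lower. Of 10 parenchymal fibroblast genes 2 rose and 3 fell (median -0.06, and 0.05 with total counts), with log2 changes of 1.92 ± 0.19 for Col15a1 and -3.3 ± 0.39 for Inmt (edgeR adjusted p = 1.46e-06 and 7.39e-06). Secreted factors attributed to FAPs rose in 6 of 12 tested cases (median 0.89), including Il6, by 2.89 ± 0.69 log2, and Ccn4, by 1.66 ± 0.31 (edgeR adjusted p = 0.00372 and 0.000472). Il6 was barely detected, with 0 to 25 counts per library. Its flox group means were 0.0549 CPM at unloading and 0.424 CPM at reloading. Of 9 adipogenic genes edgeR called 0 in flox (median -0.28), 0 had an unadjusted p under 0.05 and DESeq2 called 0, and 3 fell under the mKO label: Lep, Cidec and Cebpa. Under that label the median of the 9 was -0.89, with 7 of 9 at an unadjusted p under 0.05, and 8.81% of all tested genes were called lower. The interaction for this change called 0 of the 9 (0% of all tested genes), with 1 at an unadjusted p under 0.05.

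Genes of activated fibroblasts, the matrix-depositing state, rose in both genotypes on reloading. In flox 11 of 12 rose on reloading against unloading (median 2.84) and under the mKO label 8 of 12 (median 1.52). Over all tested genes 17% and 9.53% were called higher. Timp1 rose in flox by 4.06 ± 0.33 log2, Cthrc1 by 4.03 ± 0.29, Postn by 3.76 ± 0.32 and Adam12 by 3.57 ± 0.3 (edgeR adjusted p = 2.62e-07, 7.08e-08, 3.28e-07 and 3.19e-07). At reloading 7 of 12 were lower under the mKO label (median -1.42), beside 2 of the 10 FAP markers (median -0.27). The share over all tested genes was 3.85%. Calls of the activated fibroblast genes were not recomputed with a library left out.

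**Figure D5:**
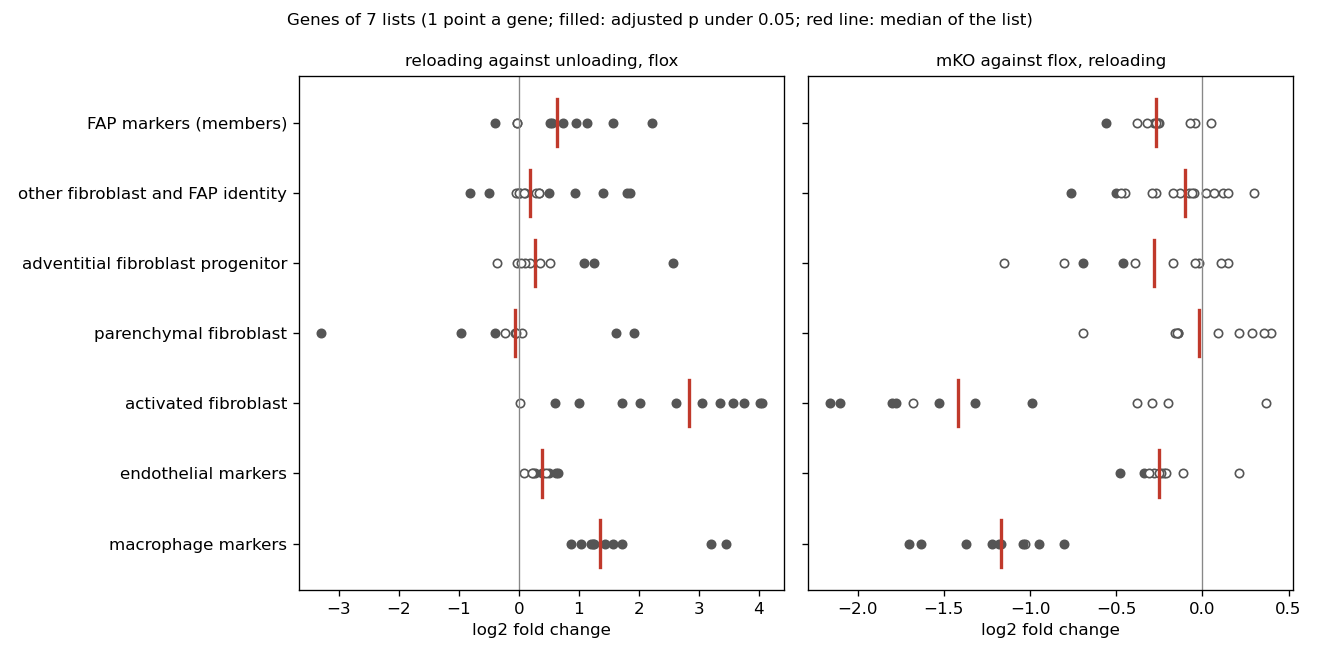
Log2 fold change (horizontal axis) of each gene in 7 lists, for reloading against unloading in flox and for labelled mKO against flox at reloading; filled points passed an edgeR adjusted p of 0.05 and red lines are list medians. Activated fibroblast genes have medians of 2.84 and -1.42, and the 10 FAP markers 0.64 and -0.27.

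The remaining cell type lists are given for reloading against unloading in flox, where 17% of all tested genes were called higher and 14.9% lower. Satellite cell genes had 3 of 8 higher and 2 lower (median 0.28), smooth muscle and pericyte genes 2 of 8 higher and 1 lower (0.09), Schwann cell genes 3 of 8 lower (-0.55) and myofibre genes 2 of 8 higher and 3 lower (-0.03, and 0.08 with total counts). Among the 5 tested of 8 in each list, edgeR called 0 lymphocyte and 0 neutrophil genes, with 0 and 2 at an unadjusted p under 0.05, and DESeq2 called 0 and 1.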

How the data were processed

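The authors deposited unscaled read counts for each gene in 18 libraries. Per the submitters' processing notes STAR 2.7.3a aligned the reads to GRCm38.p6, and counting used featureCounts 2.0.3, whereas the file header names featureCounts 1.6.4 and annotation release 94. The deposited exon lengths, another value in the same table, were used for CPM per kb. The header shows no strand option, so reads of overlapping antisense genes are not separated. The authors' 4 DESeq2 tables were not used here.

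Of 54532 genes, 54409 had a symbol and 17833 passed edgeR's default low-count filter. Counts were scaled by TMM and tested with edgeR 4.0.16 (quasi-likelihood F test, R 4.3.3) in 1 model of 6 group means with 12 residual degrees of freedom, and calls were made at 0.05 after Benjamini-Hochberg adjustment across every tested gene. The 12 contrasts were 6 between conditions, 3 between genotypes and 3 interactions. Each standard error is the fold change divided by the root of F; log2 CPM used a prior count of 2. The test was checked on simulated data. The 10 members and the other lists were chosen with earlier results of these data known. Named were all 10 members, Zfp697, up to 4 called genes by size per list, and the 5 genes nearest in pattern to Pdgfra and to the member of widest range. Comparison of library pairs within each group found no duplicates, and pairs between groups were not compared in this way. Results were recomputed with DESeq2 1.42.0, with RLE or total-count scaling, without the low-count filter or with one of 1 CPM in 3 libraries, with a replicate block, on the compared groups alone, and leaving out each library. The lists' counts were also recomputed with other scalings and DESeq2, an addition made after seeing the data.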

Additional observations from a re-analysis of the deposited data

Results flagged for a closer look

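None of the 10 markers passed the interaction test for a genotype difference in its response to loading. Among the genes of the other lists 7 passed, all in reloading against control, and in each the change was lower in libraries labelled mKO than in flox (edgeR, adjusted p under 0.05). That test called 93 of all tested genes (0.522%), 89 of them lower and 4 higher, so the direction of the 7 is that of most genes it called. Leaving out 1 library at a time, it called from 0 genes (without flox reloading replicate 1) to 448 (without mKO reloading replicate 2). None of the 7 therefore kept its call without flox reloading replicate 1. The difference of changes was -2.54 ± 0.42 log2 for Postn, -2.48 ± 0.41 log2 for Cthrc1, -2.09 ± 0.45 log2 for Timp1 and -1.84 ± 0.4 log2 for Adam12, all on the activated fibroblast list. It was -0.9 ± 0.18 log2 for Fstl1, on the fibroblast identity list. The macrophage genes C1qb and Mrc1 gave -1.38 ± 0.27 log2 and -1.01 ± 0.2 log2.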

How the results depend on the processing

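Of 26 called results on single markers, 20 kept their call in every alternative and none changed sign. Of 94 uncalled results, 79 were called in no alternative and 39 changed sign in at least 1, none of these reversals with an adjusted p under 0.05. Counts of markers called moved by more than 1.5 times as follows. With no low-count filter, edgeR called 7 for unloading against control and 6 for reloading against control in flox, 1 for reloading against control under the mKO label, 1 for the interaction on reloading against unloading and 2 for that on reloading against control. In that order, this setting called 1651, 4296, 1216, 564 and 755 of all 32258 genes then tested. With the filter these were 1024, 4035, 389, 0 and 93 of 17833. For labelled mKO against flox at reloading the count was 4 with total counts, 1 with only the compared groups and 0 to 2 when 1 library was left out. It was 0 without flox reloading replicate 2 or mKO reloading replicate 3. Over all tested genes this comparison called 875 in the main setting, 1485 with total counts and 443 with only the compared groups. It called 185 and 127 without those 2 libraries. The cause was not tested. With the replicate block, 6 markers were called for unloading against control in flox, where 4 were called without it, and 5 for reloading against unloading under the mKO label, where 4 were. The block changed no other count of markers. Over all tested genes it raised the calls, from 1024 to 1124 for unloading against control in flox and from 875 to 986 between genotypes at reloading. The labels do not say that replicate numbers pair the samples. Deviations from the group means correlated at -0.074 to 0.126 (median 0.024) between same-numbered libraries of different groups and at -0.162 to 0.128 (median -0.004) between others, and the highest value was between libraries of different number. These ranges overlap, so they do not decide whether the numbers pair samples.

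Sign changes were all of uncalled values. With total counts, Pdgfra became 0.08 and Pi16 0.08 for reloading against unloading in flox, Pdgfra 0.03 for reloading against control in flox, Dpp4 0.02 for reloading against unloading under the mKO label, Ly6a 0 in controls and Dcn -0.09 at reloading for labelled mKO against flox, and Pdgfra -0.12 and Dcn -0.09 in the interaction for reloading against control. Dpt became 0 with RLE size factors and 0 with DESeq2 for labelled mKO against flox at unloading. The rest came from leaving out 1 library, as log2 ranges. In unloading against control in flox, Dcn ran from -0.01 to 0.2. In reloading against unloading in flox, Pdgfra ran from -0.09 to 0.02 and Pi16 from -0.26 to 0.13. In reloading against control in flox, Dpt ran from -0.01 to 0.15. In unloading against control under the mKO label, Pdgfra ran from -0.06 to 0.22, Dpp4 from -0.24 to 0.23 and Dcn from -0.11 to 0.1. In reloading against unloading under the mKO label, Dpp4 ran from -0.16 to 0.18. In reloading against control under the mKO label, Pdgfra ran from -0.2 to 0.08, Cd34 from -0.03 to 0.06, Dpp4 from -0.22 to 0.23, Ly6a from -0.01 to 0.16 and Clec11a from -0.05 to 0.2. In labelled mKO against flox in controls, Pdgfra ran from -0.26 to 0.02, Cd34 from -0.02 to 0.05, Dpp4 from -0.38 to 0.07, Pi16 from -0.49 to 0.03, Dpt from -0.06 to 0.16, Ly6a from -0.05 to 0.07 and Dcn from -0.12 to 0.1. In labelled mKO against flox at unloading, Pdgfra ran from 0 to 0.09, Cd34 from -0.04 to 0.04, Dpp4 from -0.01 to 0.34, Dpt from -0.04 to 0.04, Ly6a from -0.08 to 0.16 and Lum from -0.22 to 0.01. In labelled mKO against flox at reloading, Dcn ran from -0.07 to 0.18 and Clec11a from -0.22 to 0.22. In the interaction for unloading against control, Cd34 ran from -0.06 to 0.02, Pi16 from -0.13 to 0.38, Dpt from -0.16 to 0.06 and Ly6a from -0.07 to 0.16. In the interaction for reloading against unloading, Pi16 ran from -0.33 to 0.07. In the interaction for reloading against control, Pdgfra ran from -0.08 to 0.2, Cd248 from -0.2 to 0.12, Dpp4 from -0.44 to 0, Pi16 from -0.3 to 0.22 and Dcn from -0.08 to 0.17.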
